A study of Mus musculus with 13 samples.

Results

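Genes used as markers of portal fibroblasts and of the mesothelium were followed in liver RNA from mice with and without bile duct ligation (BDL). The list held 10 genes, named by cell type and chosen by their read counts in earlier results from the same 3 comparisons, so the values of its members are given as a description and carry no test. Of the 10 genes, 9 had a row in the count tables, out of 23785 genes with a row in any table. They were the mesothelial genes Msln, Upk1b, Upk3b, Wt1 and Gpm6a and the portal fibroblast genes Eln, Fbln2, Thy1 and Entpd2. The mesothelial gene Muc16 was not analysed here.

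The study asked what an inhibitor of the microRNA miR-873-5p does to the liver during obstructive cholestasis. All 13 mice were C57 animals of 3 months, male and wild type for Gnmt. In the BDL groups the common bile duct was tied and livers were taken at day 7. The 4 miR-Ctrl BDL mice received a control oligonucleotide and the 4 anti-miR-873-5p BDL mice an inhibitor of miR-873-5p, both at 60 ug per mouse into a vein with the carrier Invivofectamine at days 3 and 5. The 5 no BDL mice were untreated, with neither sham surgery nor an oligonucleotide named, so ligation, surgery and oligonucleotide cannot be told apart in a comparison with them. Whole liver was sequenced, and in such bulk RNA fewer cells of a type and less RNA per cell cannot be told apart.

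Portal fibroblasts lie in the connective tissue around the bile ducts and are set apart from hepatic stellate cells, which store vitamin A in the space beside the sinusoids. In cholestasis they multiply around the ducts and lay down collagen and elastin. The mesothelium is the single cell layer that covers the liver capsule, and several of its surface proteins, mesothelin among them, are also made by activated portal fibroblasts in cholestatic liver.

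The mature sequence of the inhibited microRNA is shown because the seed, bases 2 to 8 in capitals, sets which messages it can pair with. It is encoded on the minus strand at chr4:36668556-36668576 (GRCm38.p6, RefSeq).
mmu-miR-873a-5p: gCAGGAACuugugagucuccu
Of the 9 measured members, 1 held the complement of this seed in a 3′ UTR annotated by GENCODE M21. It was Upk3b, at chr5:136045014-136045042 on the plus strand (GRCm38), with the pairing letters in capitals. The site lies past the RefSeq end of the gene, 136044993, in a longer GENCODE transcript.
Upk3b site: caaagccagtgGTTCCTGccatcaccatg
These 7 letters occurred in the 3′ UTRs of 13.9% of the 20939 genes that have one, and a match is not evidence of binding. The mature microRNA itself was not measured in these libraries.

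For a mesothelial and a portal fibroblast member that were both higher after BDL, RefSeq promoters (250 bases before to 50 after the start, plus strand, GRCm38.p6) are shown, with capitals for GGGCGG, the GC box bound by Sp1, and GGAATG, the core bound by TEAD factors, each searched on both strands. Upk3b lay at chr5:136038246-136038545 and Entpd2 at chr2:25395624-25395923.
Upk3b promoter: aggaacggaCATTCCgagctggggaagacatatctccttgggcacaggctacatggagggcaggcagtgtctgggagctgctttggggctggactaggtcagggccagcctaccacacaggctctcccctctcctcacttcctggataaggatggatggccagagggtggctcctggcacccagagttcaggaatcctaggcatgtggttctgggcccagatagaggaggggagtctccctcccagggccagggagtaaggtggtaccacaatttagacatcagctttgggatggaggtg
Entpd2 promoter: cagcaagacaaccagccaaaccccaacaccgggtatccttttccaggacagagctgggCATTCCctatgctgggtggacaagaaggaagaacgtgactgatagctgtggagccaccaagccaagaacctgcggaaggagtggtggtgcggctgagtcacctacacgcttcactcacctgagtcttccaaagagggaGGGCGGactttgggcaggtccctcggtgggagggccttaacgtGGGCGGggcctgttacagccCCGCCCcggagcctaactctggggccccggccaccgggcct
The Upk3b promoter held 1 GGAATG and 0 GGGCGG, and the Entpd2 promoter held 1 GGAATG and 3 GGGCGG. Among all 32851 promoters of this length, 14.7% held GGAATG and 35.7% held GGGCGG.

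Counts came in 1 table per comparison, with totals of 12185333 to 19689037 reads per mouse. The members had the same counts in each table, so their values are set side by side as normalized counts, which are depth-scaled counts (CPM) after scaling by the trimmed mean of M values (TMM) over the 13 mice. The table of the BDL groups against each other holds 3 mice per group and lacks a mouse of each, miR-Ctrl mouse 3 and mouse 2 of the anti-miR-873-5p group, called the omitted mice here. They lay at the edge of their groups in most genes. By chance each mouse of a group would be highest in an equal share of genes, and the other mice were not counted in this way. In miR-Ctrl mouse 3, 37% of 13542 genes lay above and 39% below all the other miR-Ctrl mice. In anti-miR-873-5p mouse 2, 34.5% of 13742 genes lay above and 39.2% below the others. Both are therefore marked throughout, and results of the members that rest on them are given with and without them. Hepatocyte markers were present in every library, with a summed level of at least 42438 normalized counts over 5 of the 6 listed, most of it Alb. Of 5 pancreatic acinar markers, Cpa1, Pnlip and Cel had 0 reads in all 13 mice, Ctrb1 had 2 reads in 1 mouse, and Cela2a had 6 to 29 reads in every mouse.

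All 5 mesothelial members had reads in each of the 8 BDL mice, and 4 of them, all but Gpm6a, had at most 4 reads in any mouse without BDL. Msln, which encodes the surface glycoprotein mesothelin, had 1 read in total over the 5 no BDL mice. The 4 miR-Ctrl BDL mice had 6.80, 8.83, 33.2 and 16.7 normalized counts of Msln in the order of their numbers, from 112 to 399 reads. The anti-miR-873-5p BDL mice had 12.6, 26.8, 4.28 and 17.4. The groups with and without BDL did not overlap, and the highest Msln value in each BDL group was that of its omitted mouse. With 1 read as the base, the pooled ratio to no BDL was 888 in miR-Ctrl BDL, with an exact interval for counting error of 159 to 35096, and 870.3 in anti-miR-873-5p BDL, with an interval of 156 to 34409. The fitted log2 fold changes, which depend on the prior count at such a base, were 9.28 ± 0.82 (SE) and 9.20 ± 0.81. These SEs were derived from the F statistic of the edgeR fit and are narrow for a base of 1 read. The DESeq2 fit gave an SE of 1.06 with miR-Ctrl.

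The uroplakins Upk1b and Upk3b, membrane proteins first known from the urothelium, also had values above every no BDL mouse in all 8 BDL mice. Upk3b had 1 read over the 5 no BDL mice. It stood at 3.10, 3.88, 9.47 and 11.8 normalized counts with miR-Ctrl and at 4.59, 9.12, 2.35 and 12.4 with anti-miR-873-5p. Upk3b was highest in mouse 4 of each BDL group, with the omitted mouse next. The pooled Upk3b ratio was 403 (interval 72.0 to 15973) and 430.3 (interval 76.9 to 17029) in the same order.

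Upk1b also had 1 read without BDL, in mouse 5. Its values were 1.21, 1.55, 6.48 and 4.78 normalized counts with miR-Ctrl and 1.57, 4.83, 0.783 and 3.39 with anti-miR-873-5p, for pooled ratios of 193 (interval 34.2 to 7649) and 152 (interval 26.9 to 6026). Within each BDL group, the ranking of the mice by Upk1b was that by Msln.

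Wt1, a zinc finger transcription factor of the mesothelium and other coelomic linings, had 0 to 4 reads per mouse without BDL. Its normalized counts were 0.789, 0.895, 3.08 and 2.78 with miR-Ctrl and 0.944, 2.64, 2.83 and 3.49 with anti-miR-873-5p. Every BDL mouse lay above the highest no BDL mouse, at 0.327, and the log2 fold changes were 3.70 ± 0.74 and 4.13 ± 0.66.

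Gpm6a, a membrane glycoprotein of neurons that also marks liver mesothelium, was the mesothelial member with the most reads without BDL. It had 0.285 to 1.89 normalized counts there, 2.37, 3.76, 5.07 and 4.66 with miR-Ctrl, and 3.02, 5.20, 2.11 and 5.74 with anti-miR-873-5p. The groups did not overlap, although anti-miR-873-5p mouse 3 lay close to no BDL mouse 1. The log2 fold changes of Gpm6a were 2.14 ± 0.47 and 2.17 ± 0.50, the lowest of the mesothelial members.

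**Figure D1:**
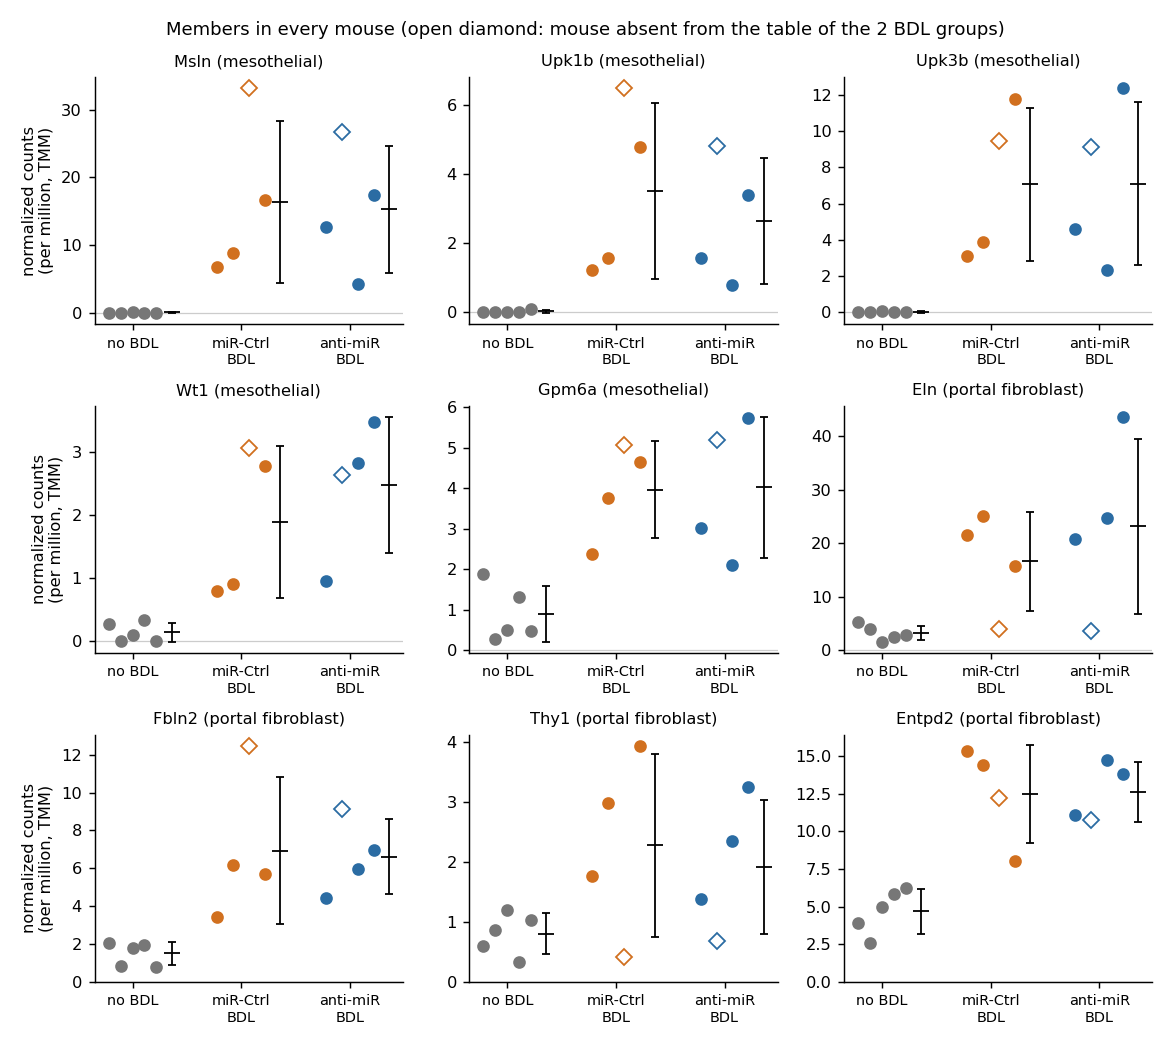
Normalized counts (CPM, TMM scaling) of the 9 members in every mouse, with the mean ± SD of each group as a bar (n = 5, 4 and 4). Open diamonds are the omitted mice, which had the highest Msln (33.2 and 26.8) and the lowest Eln (3.99 and 3.62) of their groups.

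The portal fibroblast members were all detected without BDL, from 4 reads of Thy1 to 78 reads of Entpd2 per mouse. Their log2 fold changes, 1.29 to 2.88, lay below those of Msln, Upk1b, Upk3b and Wt1 and on both sides of those of Gpm6a. Eln encodes elastin, the core of the elastic fibre. It had 1.62 to 5.25 normalized counts without BDL. The miR-Ctrl BDL mice had 21.6, 25.2, 3.99 and 15.7, and those given anti-miR-873-5p had 20.8, 3.62, 24.6 and 43.5. In each BDL group 3 mice lay above all no BDL mice, and the omitted mouse lay inside the no BDL range. The log2 fold changes of Eln were 2.39 ± 0.49 and 2.88 ± 0.58 with these mice and 2.70 ± 0.30 and 3.22 ± 0.34 without them.

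Thy1, a small glycoprotein anchored in the membrane of portal fibroblasts and of T cells, was likewise lowest in the omitted mouse of each BDL group. It ran from 0.327 to 1.19 normalized counts without BDL. The values were 1.76, 2.98, 0.416 and 3.93 with miR-Ctrl and 1.38, 0.679, 2.35 and 3.24 with anti-miR-873-5p. Again the omitted mice were those inside the no BDL range. Thy1 had log2 fold changes of 1.53 ± 0.55 and 1.29 ± 0.48 with them and 1.85 ± 0.38 and 1.55 ± 0.40 without them. The T cell marker list holds Thy1 itself, and the other 6 of its genes with a row for all 13 mice had their lowest summed levels in the same mice, at 0.582 and 0.528 normalized counts against 2.31 to 5.87 in the other BDL mice and 3.36 to 8.43 without BDL. Their part in the Thy1 values was not tested.

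Fbln2 encodes fibulin 2, a glycoprotein that binds elastic fibres and basement membranes. It had 0.795 to 2.07 normalized counts without BDL, 3.40, 6.15, 12.5 and 5.68 with miR-Ctrl, and 4.40, 9.12, 5.96 and 6.97 with anti-miR-873-5p. Every mouse with BDL lay above every mouse without it, and the highest Fbln2 of each BDL group was in its omitted mouse, which had the lowest Eln and Thy1. The log2 fold changes of Fbln2 were 2.21 ± 0.41 and 2.16 ± 0.33.

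Entpd2, the ecto-nucleotidase of portal fibroblasts that cleaves extracellular ATP, was the most even member. It had 2.57 to 6.20 normalized counts without BDL, 15.4, 14.4, 12.2 and 8.04 with miR-Ctrl, and 11.1, 10.8, 14.8 and 13.8 with anti-miR-873-5p. The highest of the 8 BDL mice was 1.91 times the lowest for Entpd2, against 12.03 times for Eln, 9.46 times for Thy1 and 8.28 times for Upk1b. The log2 fold changes were 1.43 ± 0.27 and 1.45 ± 0.24. Of the 50-base windows of the Entpd2 transcripts, 29.9% also occur in its neighbour Npdc1 on the same strand, so part of its count is uncertain. In Eln 2.8% of windows are shared with Gm30003 on the opposite strand, which the kit cannot tell apart, and the other measured members shared 0%.

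Counted as calls (edgeR quasi-likelihood, adjusted p under 0.05), 8 of the 9 members were higher in miR-Ctrl BDL than in no BDL, against 19.1% of the 13072 genes tested. In anti-miR-873-5p BDL the count was also 8 of 9, against 13.1% of 13130 genes. Thy1 missed the threshold in both. In each comparison 7 of 9 members had groups that did not overlap, against 14.8% and 10.1% of all genes. Without miR-Ctrl mouse 3 this was 9 of 9 against 21.1% of all genes, and without anti-miR-873-5p mouse 2 it was 9 of 9 against 16.9%. Nothing is read from these counts, since the list was made with these contrasts known, and the 2 comparisons share the no BDL mice. The median log2 fold change of the members was 2.39 and 2.88, beside -0.011 and -0.0070 over all genes tested. Scaling by library size alone moved the median of all genes by 0.80 and 0.82, and every member stayed higher than that shifted median.

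**Figure D2:**
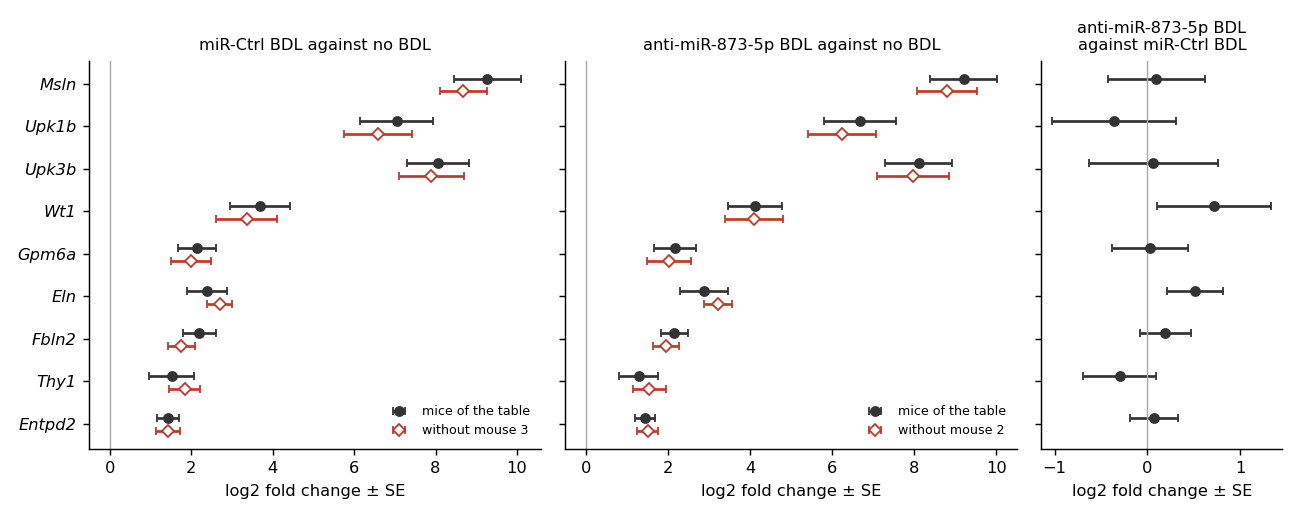
Log2 fold change ± SE of each member in the 3 comparisons (edgeR quasi-likelihood fit, TMM), with filled points for the mice of each table and open red diamonds for the fit without miR-Ctrl mouse 3 or mouse 2 of the anti-miR-873-5p group. All 9 members lie above 0 in both comparisons with no BDL, and without those mice Eln and Thy1 lie further from 0.

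Per length of the longest annotated transcript, Msln went from among the lowest members without BDL to among the highest with it. Without BDL, Entpd2 was highest at 2.42 ± 0.77 (SD, n = 5) normalized counts per kb, followed by Eln at 0.839 ± 0.361 and Thy1 at 0.463 ± 0.198, while the lowest levels were those of Wt1, Upk1b, Msln and Upk3b. Entpd2 lay above Eln in 5 of 5 mice. In miR-Ctrl BDL, Msln had the highest mean at 7.56 ± 5.53 per kb (n = 4), then Entpd2 at 6.46 ± 1.68 and Eln at 4.31 ± 2.41. Msln exceeded Entpd2 in 2 of 4 of these mice, and Entpd2 exceeded Eln in 4 of 4. The means of the same 3 genes with anti-miR-873-5p were 7.05 ± 4.34, 6.52 ± 1.03 and 6.01 ± 4.25 (n = 4). The first rank of Msln rested on the omitted mice. Without them (n = 3) Entpd2 led with miR-Ctrl at 6.51 ± 2.05, before Eln at 5.40 ± 1.24 and Msln at 4.98 ± 2.41, and with anti-miR-873-5p Eln led at 7.70 ± 3.16, before Entpd2 at 6.83 ± 0.99 and Msln at 5.28 ± 3.06. Wt1 was lowest in both BDL groups, at 0.610 ± 0.392 and 0.801 ± 0.350 with all 4 mice. In each of the 3 groups, the ranges over mice of all neighbours in the order by means overlapped.

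No member separated the 2 BDL groups. In the deposited table of 3 mice per group, the log2 fold changes of anti-miR-873-5p against miR-Ctrl ran from -0.36 ± 0.66 for Upk1b to 0.72 ± 0.62 for Wt1, with 0.10 ± 0.52 for Msln, 0.52 ± 0.30 for Eln and 0.072 ± 0.26 for Entpd2. Of the 9 members, 0 were called and 0 had groups that did not overlap, against 0% and 11.4% of the 13746 genes tested. With all 4 mice of each group, 0 of 9 were called. By edgeR 863 genes had an unadjusted p under 0.05, and the lowest adjusted p was 0.757. SEs of 0.26 to 0.70 leave room for sizeable differences in either direction.

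Genes known from the same cells or structures, listed beside the members, are described by their own calls. These lists too were chosen with earlier results of these data known. Many genes named from them were picked for a large change in miR-Ctrl BDL against no BDL. Their adjusted p values therefore describe the fit over all genes and are not independent support. Counts of Slpi, Lox and Alpl for the same mouse differ between the tables, so their 2 fold changes are not to be compared with each other. Of 12 further mesothelial genes, 7 passed the count filter in miR-Ctrl BDL against no BDL and all 7 rose, against 19.1% of all genes. Their median log2 fold change was 5.74. Against the same controls, the other BDL group had 5 genes past the filter, of which all 5 rose, against 13.1% of all genes, at a median of 5.04. Members of a list this low without BDL pass the filter through the BDL mice, so these shares are not support. Efemp1 rose least, by 0.67 ± 0.15 and 0.93 ± 0.26. Among genes tested in neither comparison, reads without BDL, with miR-Ctrl and with anti-miR-873-5p were 13, 78 and 84 for Aldh1a2. They were 3, 2 and 6 for Tbx18 and 0, 1 and 0 for Upk3bl. Lrrn4, a leucine-rich repeat membrane protein, had 1 read over the no BDL mice and 1.63 to 4.57 normalized counts in the 8 BDL mice. It rose by log2 6.96 ± 0.56 (adjusted p = 7.86e-05, edgeR) with miR-Ctrl and 6.48 ± 0.56 (adjusted p = 0.000336, edgeR) with anti-miR-873-5p.

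Slpi, a secreted inhibitor of leukocyte proteases that is also made by inflamed epithelia, rose by 6.50 ± 0.68 (adjusted p = 0.000212, edgeR) and 5.33 ± 0.69 (adjusted p = 0.00165, edgeR). Pdpn, the mucin-like protein podoplanin, rose by 5.75 ± 0.76 (adjusted p = 0.000586, edgeR) and 5.04 ± 0.59 (adjusted p = 0.00115, edgeR), and it reached 9.14 normalized counts in miR-Ctrl mouse 3 against 1.70 to 3.57 in the other miR-Ctrl mice. Rspo1, a secreted enhancer of Wnt signalling, rose by 5.74 ± 0.63 (adjusted p = 0.000263, edgeR) with miR-Ctrl and did not pass the filter with anti-miR-873-5p. Its reads there summed to 93 against 1 without BDL, a ratio of 82.5 with an exact interval of 14.4 to 3293. Bnc1, the transcription factor basonuclin 1, chosen after its values were seen, had 0 reads in the no BDL mice and 43 and 52 in the BDL groups, at least 13.6-fold and 15.4-fold higher than a floor of 3 reads over the no BDL group. Calb2, which encodes the mesothelial protein calretinin and was likewise chosen, had 0 reads in every mouse.

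Of 12 further portal fibroblast genes, 9 were tested in miR-Ctrl BDL, of which 5 rose, against 19.1% of all genes, and 0 fell, and the median was 1.19. With anti-miR-873-5p, 8 were tested, 5 rose, against 13.1% of all genes, and 0 fell, with a median of 2.06. Tested but not called with miR-Ctrl were Col15a1 at 0.40 ± 0.30, Dpt at 0.14 ± 0.65, Ogn at 0.46 ± 0.64 and Mfap4 at 1.12 ± 0.61. The genes not called with anti-miR-873-5p were Col15a1 at 0.49 ± 0.46, Dpt at 1.44 ± 0.67 and Ogn at 1.20 ± 0.63. Mgp, the matrix Gla protein that inhibits calcification, rose by 3.13 ± 0.44 (adjusted p = 0.000755, edgeR) and 3.49 ± 0.67 (adjusted p = 0.00725, edgeR). Cd34, a surface sialomucin of fibroblasts and endothelium, had 1.19 to 1.43 normalized counts without BDL and 4.74 to 8.89 with it, and rose by 2.09 ± 0.18 (adjusted p = 0.000108, edgeR) and 2.42 ± 0.18 (adjusted p = 0.000252, edgeR). Pi16, a marker of adventitial fibroblasts, rose by 2.58 ± 0.49 (adjusted p = 0.00327, edgeR) with miR-Ctrl and did not pass the filter with anti-miR-873-5p.

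Elastic fibre genes beside Eln were mostly higher after BDL. Of 12, 9 were tested in each comparison with no BDL. With miR-Ctrl 7 rose and 1 fell, with a median of 1.29, against 19.1% higher and 16.6% lower over all genes, and with anti-miR-873-5p 8 rose and 0 fell, with a median of 1.58, against 13.1% and 8.44%. Lox, the lysyl oxidase that cross-links elastin and collagen, rose by 5.40 ± 0.71 (adjusted p = 0.000586, edgeR) and 4.94 ± 0.56 (adjusted p = 0.00109, edgeR). Ltbp2, a matrix protein bound to fibrillin, rose by 3.15 ± 0.43 (adjusted p = 0.000665, edgeR) and 4.06 ± 0.46 (adjusted p = 0.00106, edgeR). Loxl1, a second cross-linking enzyme of elastin, had 1.02 to 3.35 normalized counts without BDL and 7.39 to 16.0 with it, and rose by 2.30 ± 0.34 (adjusted p = 0.000970, edgeR) and 2.59 ± 0.38 (adjusted p = 0.00260, edgeR). Fbn1, the microfibril protein fibrillin 1, rose by 2.15 ± 0.34 (adjusted p = 0.00137, edgeR) and 2.18 ± 0.41 (adjusted p = 0.00690, edgeR). The gene that fell with miR-Ctrl was Ltbp4, by 1.13 on the log2 scale (SE 0.33, adjusted p = 0.0240, edgeR), and its change with anti-miR-873-5p was -0.61 ± 0.31 (adjusted p = 0.185, edgeR).

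Of the other listed genes of ecto-nucleotidases and related enzymes, Entpd5 and Enpp2 included, 3 of 8 tested rose and 1 fell with miR-Ctrl. The shares of all genes were 19.1% and 16.6%. With anti-miR-873-5p 1 of 8 rose and 1 fell, close to the 13.1% and 8.44% of all genes. The medians were 0.44 and 0.24. Alpl, the tissue-nonspecific alkaline phosphatase, rose by 2.10 ± 0.37 (adjusted p = 0.00245, edgeR) and 1.37 ± 0.26 (adjusted p = 0.00744, edgeR). Entpd1, the ectonucleotidase CD39 of endothelium and immune cells, rose by 1.79 ± 0.38 (adjusted p = 0.00576, edgeR) with miR-Ctrl and had a change of 1.45 ± 0.48 (adjusted p = 0.0559, edgeR) with anti-miR-873-5p. Entpd8, the ecto-nucleotidase of the hepatocyte canalicular membrane, fell from 95.5 to 129 normalized counts without BDL to 46.7 to 59.4 and 59.9 to 73.6 with it (log2 fold changes -0.98 ± 0.13, adjusted p = 0.000539, and -0.71 ± 0.13, adjusted p = 0.00545, edgeR).

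**Figure D3:**
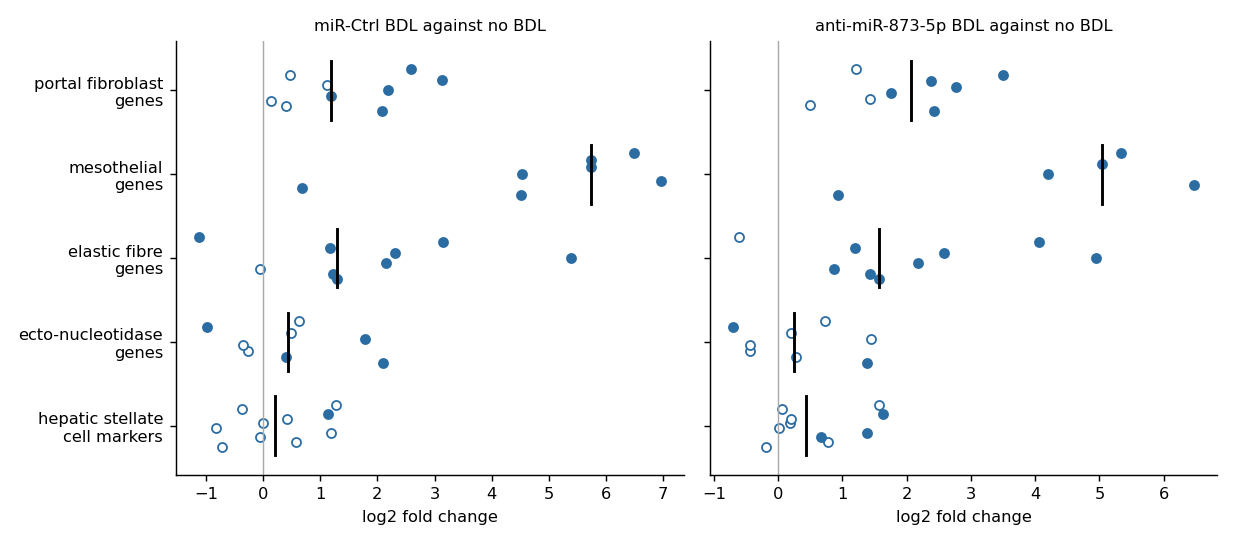
Log2 fold change of each tested gene of the lists beside the members in miR-Ctrl BDL (left) and anti-miR-873-5p BDL (right) against no BDL, with filled points for adjusted p under 0.05 (edgeR), a black bar at the list's median and a grey line at the median of all genes tested. The mesothelial list has medians of 5.74 and 5.04, over 7 and 5 genes. Genes low without BDL pass the filter through the BDL mice, so these medians are not support. The stellate cell markers spread on both sides of medians of 0.21 and 0.44, in fits that hold the omitted mice.

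For hepatic stellate cells, markers were counted in the same way. Of 10, 1 rose with miR-Ctrl, against 19.1% of all genes, and 3 with anti-miR-873-5p, against 13.1%, too few genes to rank these shares. In both 0 fell, and the medians were 0.21 and 0.44. These fits hold the omitted mice, which were low in most of these markers, and the list was not counted alone without them. Pdgfrb, the receptor for platelet-derived growth factor B that portal fibroblasts also carry, rose in both, by 1.14 ± 0.33 (adjusted p = 0.0225, edgeR) and 1.64 ± 0.28 (adjusted p = 0.00447, edgeR). Over all 5 lists, 23 of 43 tested genes rose with miR-Ctrl and 22 of 40 with anti-miR-873-5p, against the same shares of all genes. Without the omitted mice 30 of 46 and 31 of 45 rose, where 22.2% and 18.4% of all genes did. Nothing is read from these pooled counts. They include mesothelial genes that passed the filter through the BDL mice, and the lists were chosen with earlier results of these data known. Markers of other cell types also differed with BDL. Of 8 cholangiocyte markers, 7 were higher and 0 lower in each comparison with no BDL, against 19.1% and 13.1% of all genes higher. Over the 7 markers with equal counts in the tables, summed levels were 29.1 to 40.0 normalized counts without BDL and 59.1 to 134 with it. Of 6 hepatocyte markers, 5 were lower with miR-Ctrl and 3 with anti-miR-873-5p, against 16.6% and 8.44% of all genes. The summed level of the 5 with equal counts in the tables was 116592 to 134567 without BDL and 42438 to 87923 with it. Most of this sum was Alb, which was called in neither comparison. The part of these shifts in the members' values was not tested.

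The omitted mice were compared with the rest of their groups over each list. In miR-Ctrl mouse 3, 4 of 5 mesothelial members lay above the other 3 miR-Ctrl mice and 0 below, and of the 8 further mesothelial genes with a mean of at least 5 reads, 5 lay above and 0 below. In the same mouse 8 of 9 elastic fibre genes, 6 of 10 portal fibroblast genes and 9 of 9 stellate cell markers lay below the other 3, and 0 of each lay above. For comparison, 37% of all genes lay above and 39% below in this mouse.

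Anti-miR-873-5p mouse 2 was less regular. Of the mesothelial members 2 of 5 lay above the other 3 anti-miR-873-5p mice and 0 below, against 34.5% and 39.2% of all genes, but of the 8 further mesothelial genes 2 lay above and 2 below. On the matrix side, 9 of 9 elastic fibre genes, 7 of 11 portal fibroblast genes and 8 of 9 stellate cell markers lay below, with 0, 1 and 0 above. Mouse 4 of this group had the highest Upk3b, Wt1 and Gpm6a and also the highest Eln and Thy1. Mfap4, a glycoprotein of the elastic fibre, was chosen after its values were seen: it had 0.0831 normalized counts in miR-Ctrl mouse 3 against 2.90 to 2.92 in the other miR-Ctrl mice, and 1.36 in anti-miR-873-5p mouse 2 against 3.33 to 9.38. Of 4 adipocyte markers, only Cidec, a lipid droplet protein that fatty hepatocytes also make, had reads in these mice. It was at 143 and 178 normalized counts, from 1719 and 2367 reads, against at most 11.3 in the other 11. Adipoq, Plin1 and Retn had 0 reads in both. Summed over the 4 with equal counts in the tables, markers of liver sinusoidal endothelial cells were 19.4 and 34.7, against 52.5 to 94.5 in the other BDL mice. Of these markers Lyve1 went the other way in anti-miR-873-5p mouse 2, at 15.7 normalized counts against 3.34 to 11.2 in the other BDL mice. In miR-Ctrl mouse 3 Lyve1 was at 5.32, inside the range of its group. Vascular smooth muscle markers, summed over the 5 with equal counts in the tables, were also low in the omitted mice. They were at 3.49 and 7.47 normalized counts, against 13.1 to 16.9 in the other BDL mice and 5.07 to 9.21 without BDL, most of it Smtn. The part of these differences in the members' values was not tested.

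**Figure D4:**
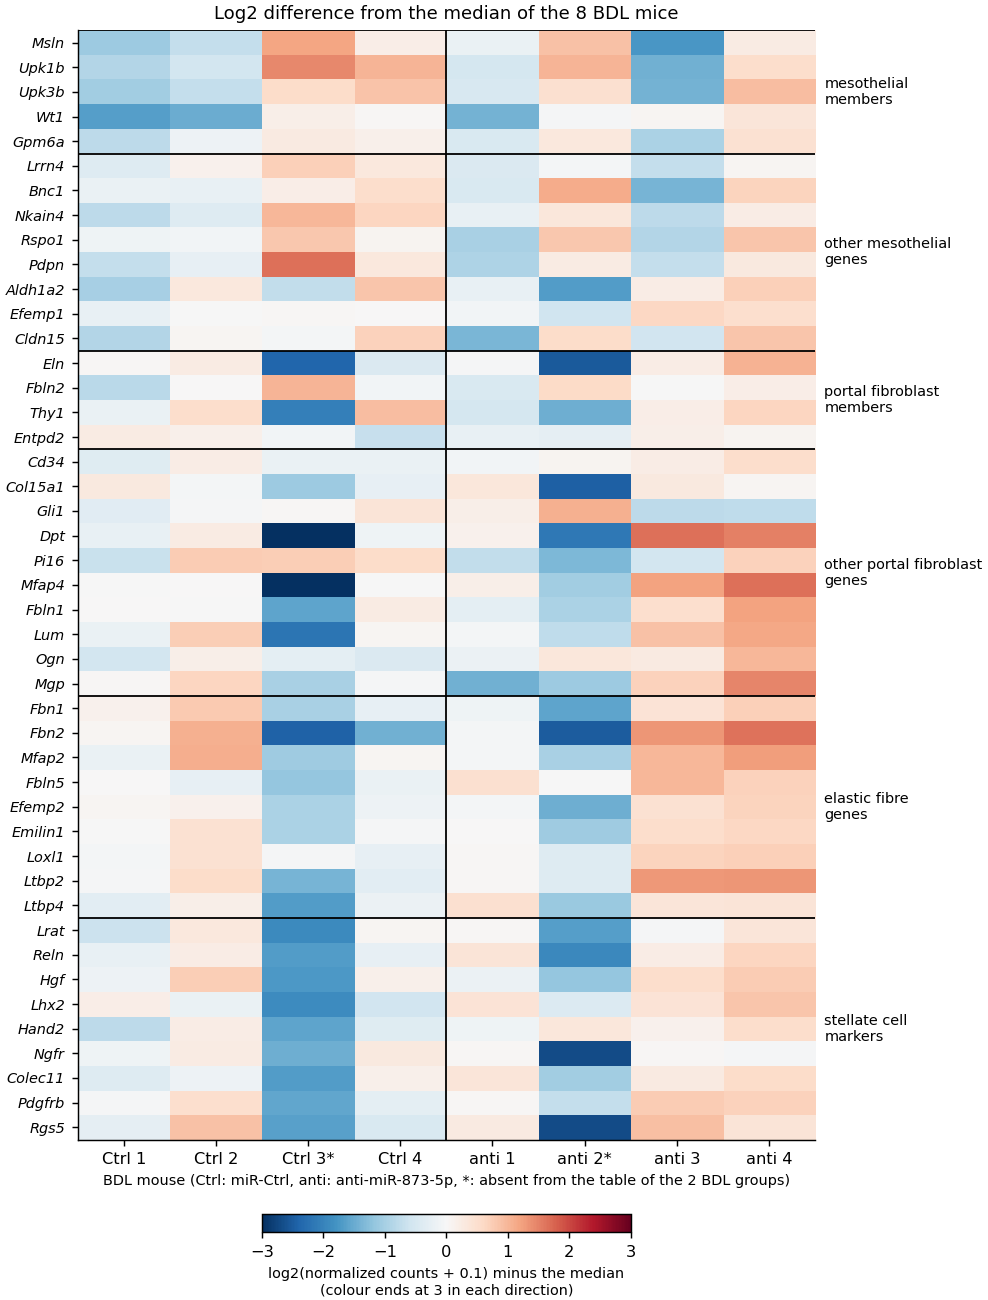
Log2(normalized counts + 0.1) minus the median of the 8 BDL mice, for the members and list genes with a mean of at least 5 reads and equal counts in the tables, with 1 column per mouse and an asterisk for the omitted mice. In those columns Eln, Thy1, most elastic fibre genes and most stellate cell markers are blue (low), with Hand2 in anti-miR-873-5p mouse 2 an exception at 0.33, and Msln and Upk1b are red (high).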

How the data were processed

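Liver RNA was sequenced from 13 mice. Per the paper's methods, the authors made libraries with the TruSeq RNA v2 kit, which does not mark strand, sequenced them as 50 nt single reads (HiScanSQ), used TopHat to map to mm10, and filtered outliers after clustering. The labels' processing notes also name CASAVA 1.8.2, FastQC, Trim Galore and DESeq2. The deposited values are raw read counts per Entrez gene, in 1 table per comparison, with no normalization. The counting program and its annotation are not given in the sources used here. Of 23019 genes in all 3 tables, 773 had other counts for the same mouse in different tables, none of them a member. Their normalized counts were set side by side nowhere. The list genes Alpl, Des, Entpd5, Lox, Loxl2 and Slpi were among them, and their fold changes and calls come from each table's own counts. In the no BDL mice Lox averaged 0.0850 normalized counts in the table with miR-Ctrl and 0.145 in that with anti-miR-873-5p. All columns were used and 0 were left out.

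Rows were matched to symbols by Entrez number in RefSeq (GRCm38.p6). The members and the lists were chosen with earlier results of these data known. Named genes were all members and, per list beside them, at most 4 called genes with groups that do not overlap and the largest change in miR-Ctrl BDL against no BDL. Other list genes named were chosen after their values were seen. Genes were filtered with filterByExpr and tested per table with edgeR 4.0.16 in R 4.3.3 (TMM, quasi-likelihood, Benjamini-Hochberg over all genes tested, threshold 0.05). The script was tested on simulated data. Levels per length used the longest GENCODE M21 transcript, since RefSeq transcript lengths were not used here. Counting intervals are exact at 95% and, like the floor of 3 reads, cover counting error only. Replicates are separate mice. No pairing of mice is described, and deviations of same-numbered mice correlated at -0.20 to 0.084 in the comparisons with no BDL and at 0.58 and 0.18 for the 2 numbers that the BDL groups share, too few pairs for the check, so mouse numbers were not used as pairs. Alternatives were library-size scaling, DESeq2 size factors, the DESeq2 1.42.0 Wald test, count filters, 1 fit of all groups, mouse number as a block, a threshold of 0.1 and leaving out each mouse. The 3-mouse comparison was also run with all 4 mice per BDL group.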

Additional observations from a re-analysis of the deposited data

Results flagged for a closer look

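In 54 groups of 4 or 5 mice, 2 single mice lay far from the rest of their group, and chance alone gives about 1 in 20. The groups were those of members and of list genes named by the rule above, with more than 3 reads in some mouse. Slpi, Lox and Alpl, whose counts differ between the tables, were not in this check. Rspo1 in miR-Ctrl BDL mouse 3 was at 2.16 normalized counts against 1.09 to 1.27 in the other 3 mice. Entpd1 in no BDL mouse 5 was at 8.35 normalized counts against 2.62 to 3.61 in the other 4. No member had such a mouse in any group tested.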

How the results depend on the processing

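All 9 members kept a positive log2 fold change in both comparisons with no BDL under all alternatives run. The count of members called stayed within 7 to 9. Thy1 passed the threshold in miR-Ctrl BDL under library-size scaling, with DESeq2 and without miR-Ctrl mouse 3, and in anti-miR-873-5p BDL under library-size scaling and without anti-miR-873-5p mouse 2. Gpm6a lost it without anti-miR-873-5p mouse 4. With mouse number as a block, a pairing the labels do not describe, 8 members were called in miR-Ctrl BDL and 7 in anti-miR-873-5p BDL, where Eln was lost, and it moved no count of all genes by over 1.5 times (4063 and 2195). Scaling by library size alone gave 9635 calls (9360 higher) in place of 4666 (2491 higher) with miR-Ctrl, and 10194 (10063 higher) in place of 2823 (1715 higher) with anti-miR-873-5p. Leaving out 1 mouse gave 3775 to 5710 calls over all genes with miR-Ctrl and 1261 to 4317 with anti-miR-873-5p. The latter were 1738, 1718, 1824 and 1713 without no BDL mice 1 to 4, and 4317, 1261 and 1392 without anti-miR-873-5p mice 2, 3 and 4. Between the BDL groups, DESeq2 called 30 genes over all and 1 of the listed genes, Slpi (log2 fold change -0.96 ± 0.24, adjusted p = 0.0353), and leaving out 1 mouse gave 0 to 1 calls, the 1 without anti-miR-873-5p mouse 3. The cause of these changes was not tested. In genes with 1 read or less over the no BDL mice, depth limits the fold change to the intervals given.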
